A study of Homo sapiens with 4 samples.

Results

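The 5 proximal zinc-finger gene clusters of human chromosome 19 were examined for N6-methyladenosine (m6A) peaks in GES-1 cells. Members were all peaks of the 2 deposited lists whose summit lay on chromosome 19 (hg19) between 9.2 and 9.9 Mb, 11.6 and 12.8 Mb, 19.7 and 24.4 Mb, 36.7 and 38.4 Mb, or 44.3 and 45 Mb. These intervals are called the 9, 12, 22, 37 and 44 Mb clusters. They held 648 of 115281 peaks, 353 of 63093 in the control list and 295 of 52188 in the CDCA list. GES-1 is an established line of human gastric epithelial cells. The control cells were untreated, and the other cells received chenodeoxycholic acid (CDCA), a primary bile acid, at 100 µM for 48 h. Both were grown in RPMI-1640 medium, and RNA freed of ribosomal RNA was immunoprecipitated with an m6A antibody. Each condition had 1 immunoprecipitation library, so no test between conditions was possible. The 95% intervals of shares and ratios are exact (Clopper-Pearson) and reflect counting error alone. The lists hold neither read counts nor expression values, and cell type markers could not be checked in them.

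m6A is set on adenosines of messenger RNA by the METTL3 and METTL14 methyltransferase and removed by FTO and ALKBH5, and it is found mainly in long internal exons and in last exons near the stop codon. Most zinc-finger genes of these clusters arose by tandem duplication and encode a KRAB domain followed by an array of C2H2 zinc fingers, with the whole array usually in the last coding exon. Many of the proteins bind transposable elements and silence them through the corepressor TRIM28. ZNF91, for example, is known to repress SVA elements and ZNF93 LINE-1 elements.

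In a RefSeq gene table of GRCh38.p14, used here for names and gene order alone, 255 of 538 protein-coding genes with a ZNF or ZFP symbol were on chromosome 19. Runs of neighbouring zinc-finger genes there matched the 5 intervals by general knowledge of their content: ZNF317 to ZNF846 (12 zinc-finger symbols among 15 genes, with 3 olfactory receptor genes), ZNF627 to ZNF791 (24 of 24), ZNF101 to ZNF254 (37 of 39), ZNF565 to ZNF573 (29 of 30) and ZNF283 to ZNF180 (20 of 20). Together these runs hold 122 zinc-finger symbols. The lists name no genes and coordinates of the 2 builds differ, so no peak was assigned to a gene. Peaks at the edges of an interval can belong to flanking genes of other families. Zinc-finger paralogues share long near-identical stretches, and how reads that fit several copies were placed is not given in the sources used here, so the copy that carried a peak is uncertain.

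m6A peaks were listed in every cluster in both lists. The 44 Mb cluster was the densest, with 56 control and 47 CDCA peaks (80 and 67.1 per Mb). The 12 Mb cluster had 80 and 75 peaks (66.7 and 62.5 per Mb). Densities were 40 and 35.7 per Mb in the 9 Mb cluster (28 and 25 peaks) and 38.2 and 27.6 per Mb in the 37 Mb cluster (65 and 47 peaks). The 22 Mb cluster, the longest at 4.7 Mb, held the most peaks (124 and 101) at the lowest density (26.4 and 21.5 per Mb). Order by density was the same in both lists.

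In each of the 5 clusters fewer peaks were listed after CDCA than in control. Over all clusters the CDCA list had 83.6% of the control number (71.4 to 97.8), against 88.5% (82.1 to 95.3) for all other chromosome 19 peaks (1325 of 1498) and 82.7% for the whole lists. Single clusters ran from 72.3% (48.6 to 107) in the 37 Mb cluster to 93.8% (67.5 to 130) in the 12 Mb cluster. The interval of each single cluster included 100%, so at this number of peaks a shortfall could not be told from equal numbers cluster by cluster. When both lists were held to equal numbers of peaks over the genome, the CDCA list had 99% of the control number in the clusters (84 to 117).

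**Figure D1:**
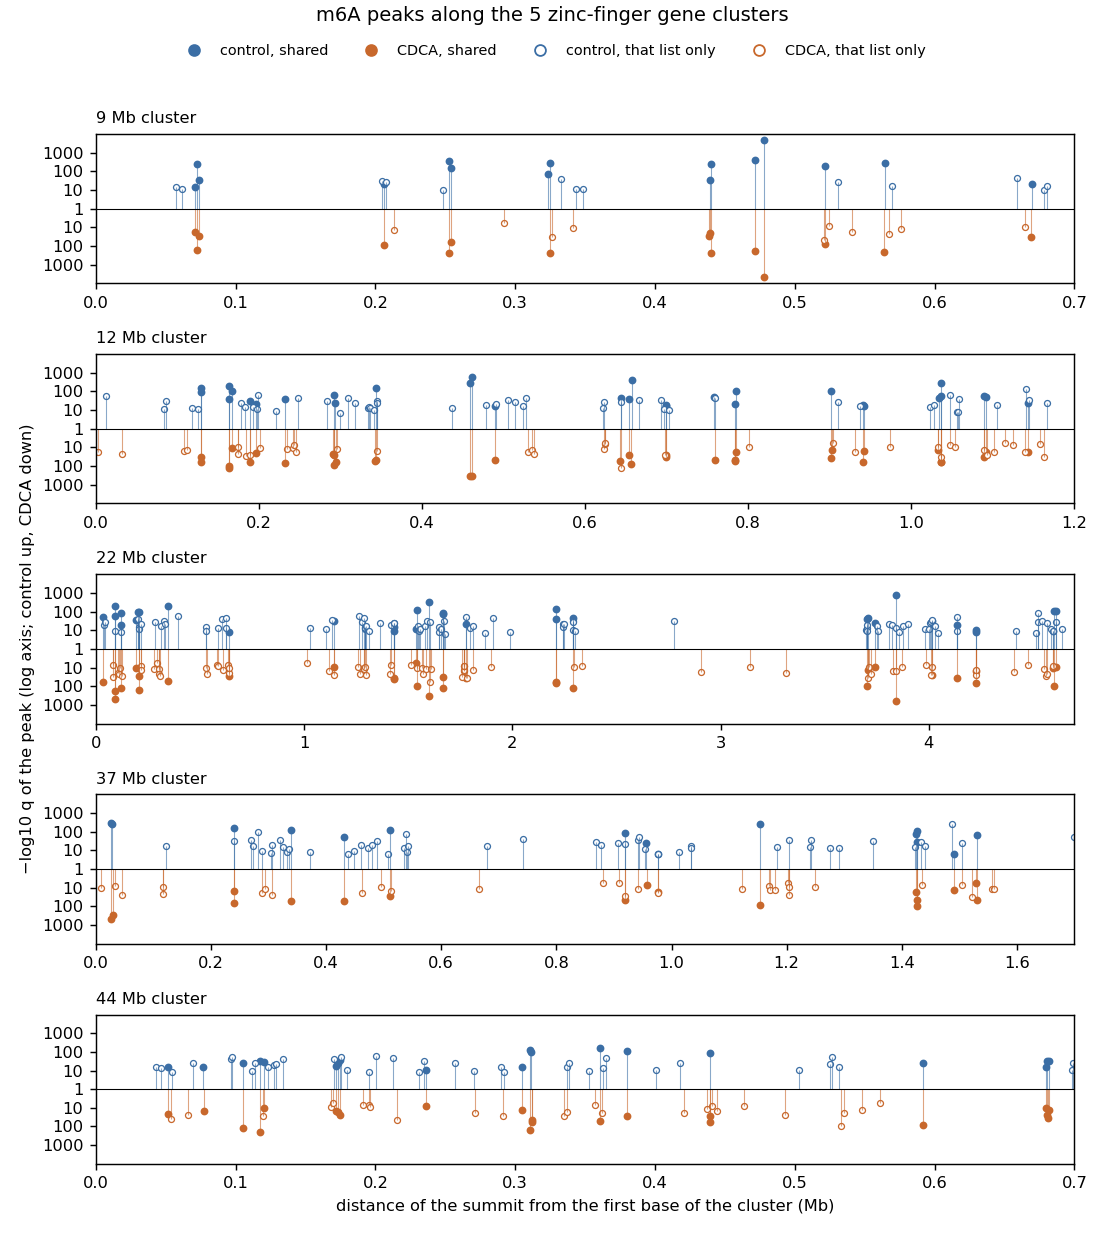
Each stem is a listed m6A peak, placed by the distance of its summit from the first base of the cluster (Mb); its height is the −log10 q on a log axis, with control peaks upward and CDCA peaks downward. Filled points have a partner in the other list (1 bp or more in common) and open points do not; the tallest stems, in the 9 Mb cluster at −log10 q 4620 and 4703, stand opposite each other, and most of the open points are short.

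Peaks were not spread evenly along the clusters. Joining peaks of either list across gaps of up to 10 kb gave 163 groups, called loci here, with a median span of 3023 bp and a median of 3 peaks. In 104 of them (63.8%, 55.9 to 71.2) both lists had a peak, against 52.6% (49.2 to 56.1) of 838 loci elsewhere on chromosome 19. On the distal long arm, which carries further zinc-finger gene clusters, the share was 75.3% of 93 loci (65.2 to 83.6). A locus with a single peak cannot hold both lists, so these shares depend on the number of peaks per locus. Such loci were 51 of the 163 in the clusters, 323 of the 838 elsewhere and 16 of the 93 on the distal long arm. Of the 163 cluster loci, 37 had control peaks alone and 22 had CDCA peaks alone, against 227 and 170 of the 838 elsewhere. Of the 104 cluster loci with both, 69 held peaks that overlapped, and in the other 35 the peaks of each list lay beside each other without overlap. Among the 441 loci with both elsewhere on chromosome 19, 272 held peaks that overlapped. The share with both lists was 90% of 10 loci in the 9 Mb cluster, 76% of 25 in the 44 Mb cluster, 74.1% of 27 in the 12 Mb cluster, 59.5% of 37 in the 37 Mb cluster and 53.1% of 64 in the 22 Mb cluster. A locus stands only roughly for a transcript, since neighbouring genes can lie within 10 kb of each other.

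The locus with the most peaks lay in the 12 Mb cluster at 11762496 to 11801729, with 10 control and 10 CDCA peaks, of which 10 in all overlapped a peak of the other list. In the 44 Mb cluster the fullest locus, at 44396845 to 44433801, had 11 control and 4 CDCA peaks. Its strongest CDCA peak had a −log10 q of 206 and its strongest control peak 55.9. The fullest locus of the 22 Mb cluster, at 20959775 to 20996685, had 8 control and 6 CDCA peaks and not 1 overlap between them. That of the 37 Mb cluster was at 38122403 to 38141241 (6 and 4 peaks), with 6 of the 10 shared. In the 9 Mb cluster 2 loci had 5 control and 3 CDCA peaks each, at 9523102 to 9548417 (3 of them shared) and at 9257265 to 9274089 (6 shared).

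Long stretches without a listed peak lay inside the 22 Mb cluster. Between 22033267 and 22476005, over 442739 bp, neither list had a peak. From 22476238 to 23399777, a stretch of 923540 bp, the control list had none. The window from 22.2 to 23.2 Mb held 1 control and 3 CDCA peaks, none of them shared. To its left, the windows of 0.5 Mb from 19.7 Mb to 22.2 Mb held 22, 7, 19, 23 and 10 control peaks and 21, 9, 14, 21 and 5 CDCA peaks, in order of position. To its right, the window at 23.2 to 23.7 Mb held 17 and 11. A stretch without peaks may hold transcripts that were not expressed, not methylated or under the authors' thresholds. The lists do not tell these apart. How reads that fit several copies were placed is not known here either, and its part in such stretches was not tested.

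Sharing between the lists, taken as an overlap of at least 1 bp, was more frequent in the clusters than over the whole lists. Of the 353 control members, 113 were shared (32.0%, 27.2 to 37.2), where the background over all control peaks was 18.2%. Of the 295 CDCA members, 122 were shared (41.4%, 35.7 to 47.2), where the background over all CDCA peaks was 22.2%. Against all other chromosome 19 peaks the gap was small. There the control share was 29.4% (27.1 to 31.8) and the CDCA share 33.2% (30.7 to 35.8). The difference was 2.57 percentage points in control (−2.64 to 8.09, Newcombe interval) and 8.15 points in CDCA (2.1 to 14.4). Peaks of 1 locus are not independent, so these intervals are too narrow, and with a fold enrichment of at least 10 or an overlap of 50% of both peaks the control difference turned to −1.08 and −1.02 points and the CDCA difference shrank to 0.689 and 0.217. With the cluster limits moved out or in by 100 kb the CDCA difference was 5.39 (−0.392 to 11.4) and 6.15 points (−0.148 to 12.7), and both intervals included 0. The interval also included 0 with a −log10 q of 20 or more (5.27, −3.98 to 14.1) and with summits within 100 bp (2.86, −2.33 to 8.55).

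Within chromosome 19 the clusters lay between the distal long arm and the remainder. The distal long arm was taken as 52 to 54 Mb and from 56 Mb on. Its shares were 45.2% of 279 peaks in control (39.2 to 51.2) and 44.5% of 272 peaks in CDCA (38.5 to 50.6). The remaining chromosome 19 had 25.8% of 1219 peaks in control (23.4 to 28.4) and 30.3% of 1053 peaks in CDCA (27.5 to 33.2). In the control list the proximal clusters were 13.2 points below the distal long arm (difference −13.2, −20.6 to −5.52) and 6.17 points above the remainder (0.876 to 11.7). In the CDCA list they were 3.13 points below the distal long arm (difference −3.13, −11.2 to 4.99) and 11.1 points above the remainder (4.89 to 17.4).

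The 9 Mb cluster had the highest share of common peaks, which was 53.6% for control peaks (33.9 to 72.5) and 60% for CDCA peaks (38.7 to 78.9). The 12 Mb cluster followed with 38.8% (28.1 to 50.3) and 48% (36.3 to 59.8), and the 44 Mb cluster with 33.9% (21.8 to 47.8) and 46.8% (32.1 to 61.9). The 22 Mb cluster had 26.6% (19.1 to 35.3) and 31.7% (22.8 to 41.7), and the 37 Mb cluster 23.1% (13.5 to 35.2) and 36.2% (22.7 to 51.5). The intervals of clusters next to each other in this order overlapped. Without the 9 Mb cluster, a comparison added after its values had been seen, the control share was 30.2% and the CDCA share 39.6%, and the differences from all other chromosome 19 peaks were 0.715 and 6.42 points.

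**Figure D2:**
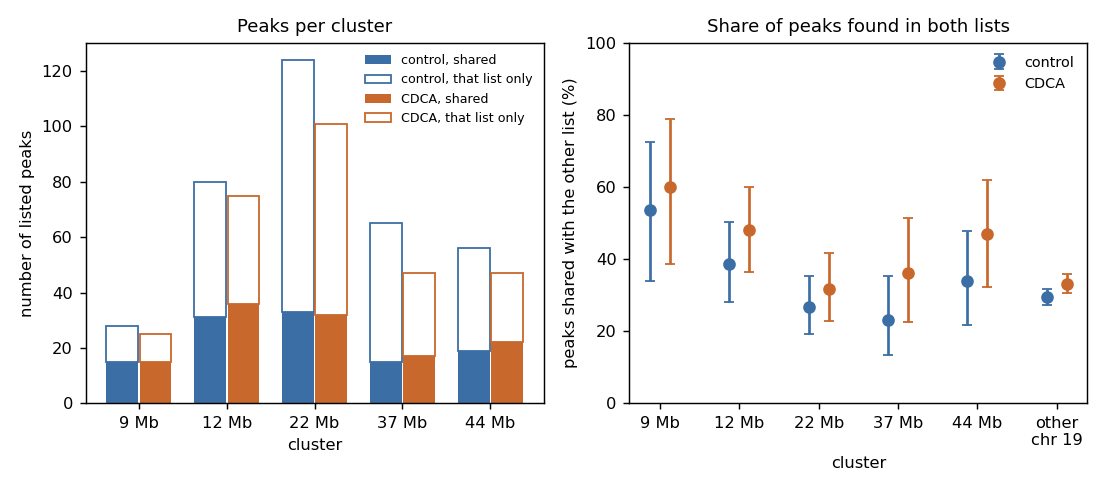
The left panel stacks the number of listed peaks in each cluster, filled where the peak overlaps the other list and open where it does not; bars start at 0. The right panel gives the percentage shared with exact 95% intervals for each cluster and for all other chromosome 19 peaks; the 9 Mb cluster is highest (53.6% and 60%), and its wide interval reflects 28 and 25 peaks.

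Sharing depended on peak strength, and strength differed between regions, so shares were also compared at like −log10 q. For a −log10 q of 20 to 50, 29% of 124 control peaks in the clusters (21.2 to 37.9) and 20.1% of 551 elsewhere on chromosome 19 (16.9 to 23.7) were shared. In the CDCA list the same band gave 42.9% of 77 (31.6 to 54.6) and 33.1% of 305 (27.9 to 38.7). At 50 to 100 the control shares were 52.9% of 34 peaks (35.1 to 70.2) and 55.4% of 157 (47.3 to 63.3). The CDCA shares there were 94.1% of 34 peaks (80.3 to 99.3) and 72.7% of 139 (64.5 to 79.9). Below 10, 12.5% of 48 control and 12.1% of 66 CDCA cluster peaks were shared. Reweighted to the strengths found in the clusters, all other chromosome 19 peaks would have been shared in 26.7% (control) and 31.4% (CDCA) of cases. Distal long-arm peaks would have been shared in 39.8% and 40.1%. The clusters had 32.0% and 41.4%, so in CDCA they were no longer below the distal long arm. In each band of both lists, except control at 50 to 100, the cluster share was above that of all other chromosome 19 peaks. The 2 intervals were apart in CDCA at 50 to 100 alone. On the distal long arm the share at 20 to 50 was 42% in control and 53.1% in CDCA, both above the clusters. At 50 to 100 it was 70.6% in control (52.5 to 84.9) and 81.4% in CDCA (66.6 to 91.6). Both of these intervals overlapped those of the clusters.

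**Figure D3:**
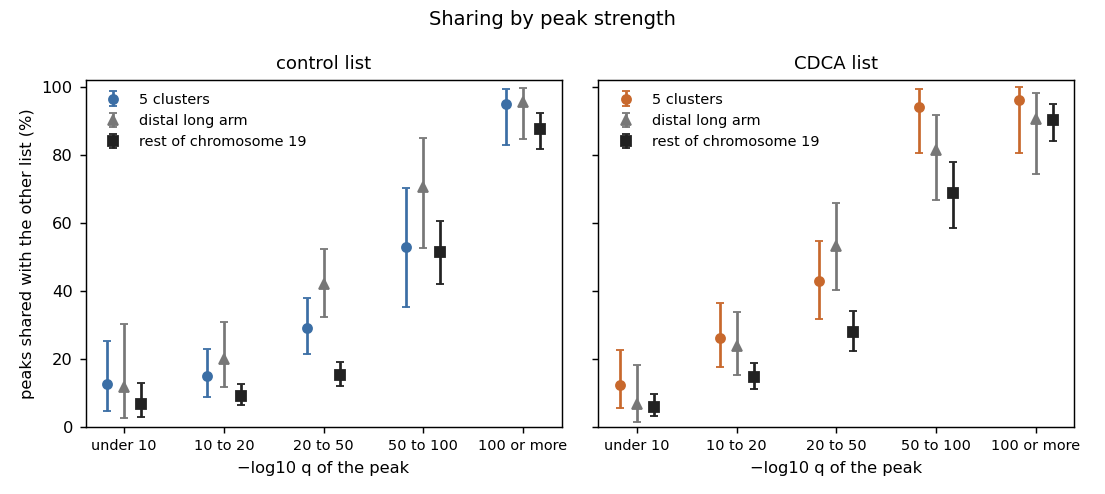
Percentage of peaks shared with the other list, in bands of −log10 q, for the 5 clusters, the distal long arm and the rest of chromosome 19, with exact 95% intervals. Shares climb with strength in all 3 regions and both lists. In the CDCA list at 50 to 100 the clusters stand at 94.1% and the distal long arm at 81.4%, with overlapping intervals.

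Strong peaks were no larger a share of the clusters than of all other chromosome 19 peaks. Strong peaks, with a −log10 q of 100 or more, numbered 39 in control (11%, 7.98 to 14.8) and 26 in CDCA (8.81%, 5.84 to 12.6). The background over all peaks was 7.77% and 7.9%, and all other chromosome 19 peaks had 13.8% (12.1 to 15.6) and 12.5% (10.7 to 14.3). The difference from these was −2.70 points in control (−6.10 to 1.35) and −3.64 points in CDCA (−6.96 to 0.5), so both intervals included 0. At the lower limit of 50 the clusters had 73 control and 60 CDCA peaks (20.7% and 20.3%), against a background of 15.3% and 13.4%. All other chromosome 19 peaks had 24.2% and 22.9% at this limit, and the distal long arm 28.0% and 27.2%. The share of strong peaks was highest in the 9 Mb cluster. There 9 of 28 peaks in control (32.1%, 15.9 to 52.4) and 7 of 25 in CDCA (28%, 12.1 to 49.4) reached 100. In the 44 Mb cluster 3 peaks of each list did. The 12 Mb cluster had 11 such peaks in control and 4 in CDCA, the 37 Mb cluster 8 and 2, and the 22 Mb cluster 8 and 10.

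Strong peaks of the clusters stood on a low local background. The background is the height that the peak caller took from the surroundings of the summit, recovered from summit height and fold enrichment. Whether the caller took it from the immunoprecipitation or the input library was not established here. It is low where few fragments of that library lie around a peak. Among strong peaks of the control list its median was 3.60 in the clusters and 9.90 elsewhere on chromosome 19. For strong CDCA peaks the medians were 3 and 9. Median fold enrichment, the ratio of summit height to background with 1 added to each, was 34.4 in the clusters and 22.6 elsewhere in control, and 33 and 24.2 in CDCA. Their summits were lower, with a median height of 153 against 225 in control and 176 against 217 in CDCA. At a set −log10 q a lower background goes with a higher fold by the way both are computed, so these are not separate observations. On the distal long arm the median background was 4 in both lists and the median fold 27.2 and 28.

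Among members of any strength, those at the lowest background of their list were 40.2% in control (35.1 to 45.6) and 35.6% in CDCA (30.1 to 41.4), against 21.4% (19.3 to 23.5) and 26.6% (24.3 to 29.1) elsewhere on chromosome 19. The difference was 18.9 points in control (13.4 to 24.4) and 8.95 points in CDCA (3.16 to 15.0). Over the whole lists the shares were 32.8% and 36.7%, so the control members were above and the CDCA members close to the share of their list. The distal long arm had 22.6% and 30.1%, and the difference of the clusters from it was 17.6 points in control (10.4 to 24.5) and 5.45 points in CDCA (−2.30 to 13.1). Clusters differed in this respect. In the 37 Mb cluster 61.5% of control and 55.3% of CDCA peaks stood at that level, and in the 9 Mb cluster 14.3% and 16%. Transcript abundance, which enters the background, was not measured in these lists, and its part in the differences was not tested.

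**Figure D4:**
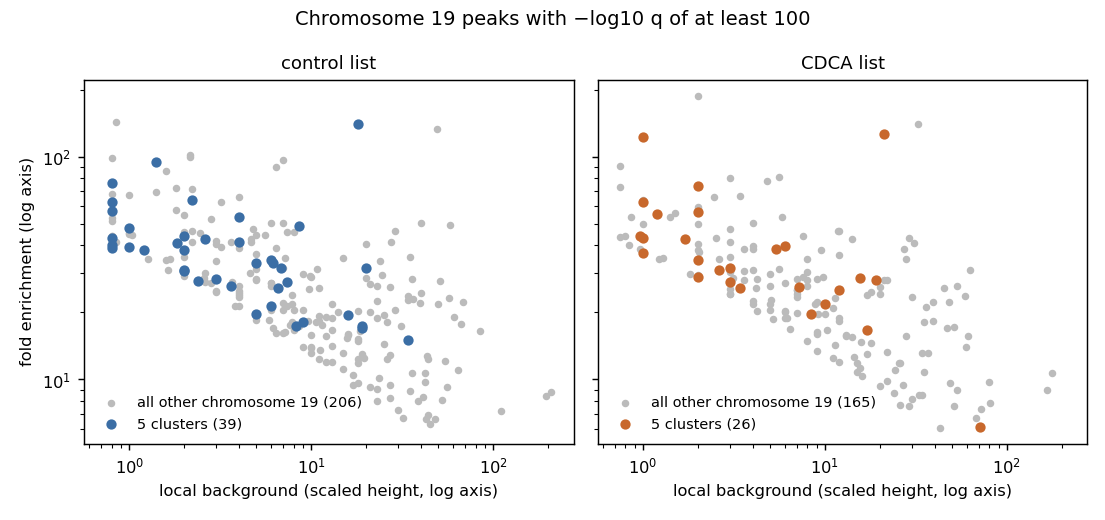
Fold enrichment against local background (both log axes, authors' scale) for the strong chromosome 19 peaks (−log10 q of 100 or more), with cluster peaks in colour over all other peaks in grey. The lower left edge of the cloud is set by the limit of 100; most cluster peaks lie at a background under 10, with medians of 3.60 in control and 3 in CDCA.

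Peak lengths in the clusters were close to those of the whole chromosome. The median was 239 bp for control members and 249 bp for CDCA members, against 242 and 243 bp for all other chromosome 19 peaks. The shortest length listed, 200 bp, was found in 28.9% and 28.8% of cluster peaks, against 33.3% and 33.2% over the whole lists and 25.7% and 26.0% elsewhere on chromosome 19. Broad peaks over 1000 bp numbered 11 in control (3.12%) and 10 in CDCA (3.39%), against 1.79% and 1.84% over the whole lists and 4.01% and 3.77% elsewhere on chromosome 19. On the distal long arm the median lengths were 261 and 268 bp, and 4.66% and 4.78% of peaks were over 1000 bp. There 25.1% and 19.5% of peaks had the shortest length. The difference of the clusters from this was 3.81 points in control (−3.21 to 10.6) and 9.33 points in CDCA (2.26 to 16.2). In the 9 Mb cluster the median lengths were 325 and 442 bp, and 3 control and 4 CDCA peaks were over 1000 bp.

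The 9 Mb cluster carried the strongest member of both lists. Its leading peak spanned 9676470 to 9677879 in control and 9676420 to 9677898 in CDCA, so 1410 and 1479 bp, and the summits were 22 bp apart. The summit height was 2659 in control and 2782 in CDCA, the fold enrichment 140 and 127, and the −log10 q 4620 and 4703. It ranked 28th by −log10 q among all control peaks and 21st among all CDCA peaks. The 2 peaks shared 95.3% of their joint length. A second pair lay to its left at 9671069 to 9671489 and 9671090 to 9671502. Its fold was 15 in control and 6.13 in CDCA, close to the lowest fold of any listed peak, on backgrounds of 34 and 71.

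Other strong sites of the 9 Mb cluster were also paired. At 9452280 to 9453158 the control peak had a fold of 53.3 and a −log10 q of 369, and its CDCA partner at 9452047 to 9452609 had 56.2 and 249. A second CDCA peak, 9452768 to 9453851, met the same control peak. At 9639559 to 9640439 (control) and 9639617 to 9640299 (CDCA) the folds were 27.4 and 16.7 and the summits 1 bp apart. The longest member of all, 2422 bp, was a CDCA peak at 9523102 to 9525523. It met 2 control peaks, the stronger at 9524184 to 9525432 with a length of 1249 bp. The CDCA peak at 9763365 to 9764673 (1309 bp, fold 25.9) faced a control peak at 9763627 to 9764800 with a fold of 33.4. All 9 control and 7 CDCA peaks of this cluster with a −log10 q of at least 100 were shared. Most peaks of that strength were shared in other regions too. The shares were 94.9% in control and 96.2% in CDCA over the 5 clusters, and 89.3% and 90.3% elsewhere on chromosome 19.

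In the 12 Mb cluster, 2 neighbouring sites were among the first 3 peaks of both lists. The left one spanned 12059142 to 12059664 in control (fold 17.4, −log10 q 294) and 12059113 to 12059635 in CDCA (39.5 and 339). The right one was listed in control at 12060368 to 12061516 (fold 49, −log10 q 614), and in CDCA at 12060463 to 12061481 (25.1 and 327). By −log10 q and fold the left site was the stronger in CDCA and the right site in control, each within its own list. By summit height the right site was the taller in both lists (469 against 348 in control, 325 against 276 in CDCA). At 12256077 to 12257066 the control peak had a fold of 94.9 on a background of 1.40, and its CDCA partner at 12256048 to 12256985 had a fold of 16.1. The CDCA peak that ranked 3rd, 11763540 to 11763886, had a fold of 43.9 and its control partner 14.9.

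The 3 longest control members all lay in the 12 Mb cluster. The site at 12636754 to 12638689 covered 1936 bp in control and 1987 bp in CDCA (12636752 to 12638738), with 97.4% of the joint length in common. Its fold was 34.4 in control and 8.51 in CDCA. The longest control member, 1990 bp at 11890881 to 11892870, met 3 separate CDCA peaks, and the 1562 bp control peak at 11942163 to 11943724 met 2. Such splits occurred in 13 control and 5 CDCA members, so a count of peaks is not a count of sites.

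The 22 Mb cluster was led by the same site in both lists, at 23541237 to 23541796 in control (height 664, fold 31.7, −log10 q 729) and 23541194 to 23541730 in CDCA (560, 28 and 585), with summits 3 bp apart. A broad site at 21300982 to 21302307 in control (1326 bp, fold 64.2) and 21301324 to 21302589 in CDCA (1266 bp, fold 73.5) ranked 2nd in control and 3rd in CDCA. The site at 19791757 to 19792476 had a fold of 42.7 and a −log10 q of 203 in control. Its CDCA peak at 19791587 to 19792295 had a fold of 122 and a −log10 q of 474, with a background of 1 against 2.60 in control. A control peak of 301 bp at 20044072 to 20044372 had a fold of 62.9, and its partner at 20044090 to 20044576 had 24.7. At 23404218 to 23405515 a CDCA peak of 1298 bp had a fold of 37, and its partner at 23404482 to 23405524 had 13.

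In the 37 Mb cluster the leading pair lay at its left edge. The site at 36726531 to 36727227 had a fold of 17 and a −log10 q of 284 in control, and at 36726576 to 36727193 it had 28.4 and 497 in CDCA. Beside it, 36728583 to 36729040 in control (31.5 and 276) met 36728526 to 36729103 in CDCA (38.4 and 299). Next in control, the peak at 37853381 to 37854042 had a fold of 41.3 against 17.1 for its partner. Next in CDCA, the peak at 38125886 to 38126247 had a fold of 16.5 against 19.6 for its partner, with 96.4% of the joint length in common.

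The 44 Mb cluster, densest in peaks, had the weakest leading peaks. Its first control peak, 44660395 to 44661272, had a height of 180, a fold of 18.1 and a −log10 q of 159, and the CDCA partner at 44660215 to 44661066 had a fold of 13 and a −log10 q of 49.1. The first CDCA peak, 44417218 to 44417652, had a fold of 62.5 and a −log10 q of 206, and the control partner at 44417192 to 44417554 had 14.6 and 30.6. At 44610550 to 44610947 in control and 44610392 to 44610953 in CDCA the values were near each other, with folds of 28.3 and 31.6. The remaining named pairs were at 44679657 to 44680277 (fold 31.1 in control, 10 in CDCA) and 44405265 to 44405603 (27.4 in CDCA, 8.48 in control). The order of sites by strength thus differed between the lists in this cluster. Each list has its own background and depth, and levels were set side by side, not compared.

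Shared members overlap by definition, which limits how far apart their summits can lie. Their median overlap with the strongest partner was 60.7% of the joint length for control members and 55.8% for CDCA members. The summits of a control member and its strongest CDCA partner were a median of 61 bp apart (quartiles 27 and 174), and 70 of 113 (61.9%) were within 100 bp. Shared control members were longer than control-only members (median 432 against 219 bp), with a higher fold (17.1 against 10.2), a higher −log10 q (49.1 against 17) and a higher background (2 against 0.800). In the CDCA list the medians were 435 against 207 bp, 15.9 against 8.52, 46.1 against 12.7 and 2 against 0.799.

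Peaks listed in 1 library alone were mostly weak. At a −log10 q of 50 or more the exceptions were mostly in control, at a share close to that of control peaks elsewhere on chromosome 19. Among members with a −log10 q of 50 or more, 18 of 73 in control (24.7%, 15.3 to 36.1) had no CDCA partner, and 3 of 60 in CDCA (5%, 1.04 to 13.9) had no control partner. Elsewhere on chromosome 19 the shares were 25.3% of 363 (20.9 to 30.1) and 17.8% of 304 (13.6 to 22.5). Of the 18 control-only members, 11 stood at the lowest background of their list, against 10 of 92 elsewhere and 1 of 12 on the distal long arm. Control members of any strength also stood there more often (40.2%) than control peaks elsewhere on chromosome 19 (21.4%). At 100 or more, 2 of 39 control members (5.13%, 0.627 to 17.3) and 1 of 26 CDCA members (3.85%, 0.0973 to 19.6) were without a partner. For all other chromosome 19 peaks this held for 22 of 206 (10.7%, 6.81 to 15.7) and 16 of 165 (9.70%, 5.64 to 15.3). The intervals of the clusters and of these peaks overlapped in both lists.

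The strongest of these was a control peak of 936 bp at 38187400 to 38188335 in the 37 Mb cluster, with a height of 136, a fold of 76.3 and a −log10 q of 245 at the lowest background (0.799). It lay 2069 bp from the closest CDCA peak. The second was a control peak of 372 bp at 12740648 to 12741019 in the 12 Mb cluster (fold 17.5, −log10 q 138), with a CDCA peak 576 bp away. The CDCA-only peak, 640 bp at 12243981 to 12244620 in the same cluster (fold 25.8, −log10 q 122), had a control peak 68 bp away. In the other clusters the leading control-only peaks were 24223481 to 24223697 (fold 32.7, 29501 bp from the nearest CDCA peak), 44500050 to 44500437 (26.4) and 9858568 to 9858803 (21.7). The leading CDCA-only peaks were 44832764 to 44833410 (35.6), 21305159 to 21305501 (23.1), 9720579 to 9720888 (17.6, 300 bp from a control peak) and 38222348 to 38222637 (16.7).

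Peaks carry running numbers, and both lists skip some, so that a peak may have been numbered and then left out. Skips were sought between the closest listed peaks of the other list on either side, at any distance. A skipped number need not belong to the site, and the shares depend on how far apart listed peaks lie. A number was skipped in the other list beside 141 of 240 control-only members (58.8%) and 88 of 173 CDCA-only members (50.9%), against 72.3% and 71.3% elsewhere on chromosome 19. On the distal long arm the shares were 71.2% and 59.6%. Beside the 936 bp control-only peak at 38187400 the CDCA list skipped a number. Beside the control-only peak at 12740648 it skipped none, so no CDCA peak was numbered between its listed neighbours there. Library-specific members often had a peak of the other list nearby. One lay within 10 kb of 172 control-only members (71.7%) and 141 CDCA-only members (81.5%), and within 1 kb of 52 (21.7%) and 50 (28.9%). Elsewhere on chromosome 19 the shares within 10 kb were 68.8% and 71.2%, and on the distal long arm alone 83.7% and 84.8%.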

How the data were processed

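Per the labels' protocols, libraries were made with an NEBNext Ultra kit and read from both ends. TopHat2 (2.0.13), the build hg19 and MACS2 (2.1.0) appear, without roles, in the submitters' processing notes. Each immunoprecipitation library had its own deposited peak list, and the 2 inputs were not used here. Per the file headers, summit height is a signal, fold enrichment a ratio, and p- and q-values stand as −log10. How the lists were thresholded and filtered is not given in the sources used here; depth in reads is unknown. Positions are 1-based.

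Peaks were placed by summit. The local background was computed as height plus 1 over fold, minus 1, and counted as lowest within 0.003 of the list's floor (0.798 control, 0.745 CDCA). Shares carry Clopper-Pearson intervals and their differences Newcombe intervals. The members and measures were chosen with earlier results of these data known. Named peaks were, per cluster and list, the 3 of highest −log10 q and the leading library-specific one, per list the 5 longest and the 5 of highest fold, and per cluster the fullest locus; peaks that met 2 or more others, the 2 other partnerless peaks at 100 or more and long empty stretches were added after their values had been seen. Alternatives covered thresholds, overlap, interval limits and the joining distance. The overlap and joining steps were tested on simulated lists. Scripts ran under Python 3.11.15 (matplotlib 3.10.9, scipy 1.17.1, pandas 2.3.3, numpy 2.4.6).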

Additional observations from a re-analysis of the deposited data

How the results depend on the processing

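Of 79 values recomputed under alternatives, 53 stayed within the interval of the reported value (counts within 1.5 times). With a −log10 q of at least 20, 197 control and 137 CDCA members were left (69.5% of control), sharing was 39.1% and 59.1%, strong peaks were 19.8% and 19%, and 51.9% of loci had peaks of both lists. With a fold of at least 10, 208 and 150 members were left and strong peaks were 18.8% and 16.7%; the sharing difference from other chromosome 19 peaks was −1.08 points in control, a reversed sign, and 0.689 in CDCA. Equal numbers of peaks per list gave 99% of the control number. An overlap of 50% of both peaks gave sharing of 20.7% and 24.7%, with differences of −1.02 (reversed) and 0.217 points, and summits within 100 bp gave 21.2% and 25.4%. With strong set at 50, the shares were 20.7% and 20.3%. Joining at 5 kb gave 251 loci (45% with both lists) and at 20 kb 96 loci. Filters on strength leave fewer peaks by construction; the cause of the other shifts was not tested. No value left the interval of the reported one when the cluster limits were shifted by 100 kb, when peaks had to lie wholly within them, or without the 9 Mb cluster; but the interval of the CDCA sharing difference included 0 with the limits moved out (5.39 points, −0.392 to 11.4) or in (6.15, −0.148 to 12.7), as it did for a −log10 q of 20 or more (5.27) and with summits within 100 bp (2.86). No paired analysis was possible because each condition had 1 library and no test was made.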
